A study of Mus musculus with 18 samples.

Results

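The comparison described here sets hippocampi of mice that exercised while they were socially defeated against hippocampi of mice that were defeated without exercise, 12 of the 18 libraries of the series. Members were chosen by label: 6 libraries are labelled CSDS + aerobic exercise and 6 are labelled CSDS, where CSDS is chronic social defeat stress, a resident-intruder procedure in which an intruder mouse is repeatedly attacked by a resident. All mice were adolescent male C57BL/6J wild types, so defeat is shared by both groups and only training differs. Training began 1 week before CSDS and ran through it, so it preceded the stress as well as accompanying it, and the tissue was taken after behavioural tests. The kind of training is not given in the sources used here, and no library from mice that exercised without defeat was analysed here. The 6 control libraries, from unstressed mice, did not enter the fits reported here, apart from one alternative with all 18 libraries, and their values are given beside the others. Each library came from 1 mouse, the animals were assigned at random, and the labels give 1 batch for all libraries.

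The hippocampus encodes memory and takes part in the control of the hormonal stress response, and it is rich in receptors for glucocorticoids. Repeated defeat is widely used as a model of stress-induced, depression-like behaviour. Aerobic exercise is known for raising the birth of granule neurons in the dentate gyrus and for its links with neurotrophic factors, above all BDNF. Interferon-stimulated genes form the antiviral program that cells run under interferon signalling, and MHC class I genes display peptides at the cell surface. Immediate early genes such as Fos and Jun are transcribed within minutes of neuronal activity.

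RNA was enriched for poly(A) and sequenced in stranded libraries. The 12 libraries held between 18911080 and 23573204 counts, with 21883 to 22738 genes above 0 per library, and 16282 genes had enough counts to test. Every pair of replicates differed far beyond sampling noise, with a chi-square per gene of 9.74 to 147 over 30 pairs, so each library was counted as its own replicate. Levels are given as CPM, counts scaled to library size, and differences as log2 fold changes of exercise with CSDS over CSDS. A standard error (SE) is the fold change divided by the root of edgeR's F statistic, and p-values measure the spread between mice.

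Differences across the genome were small. Over the 16282 genes tested, the median size of the log2 fold change was 0.17, and 781 genes (4.80%) differed by more than 1.5-fold in either direction. In edgeR's quasi-likelihood test with Benjamini-Hochberg adjustment, 1 gene passed an adjusted p under 0.05 (0.00614% of those tested), and it was higher with exercise. At an unadjusted p under 0.05 there were 2682 genes (16.5%), with 1380 (8.48%) higher and 1302 (8.0%) lower, where 5% of the genes would be 814. The group ranges did not overlap for 149 genes (0.915%), 66 of them higher with exercise (0.405%) and 83 lower (0.510%). The number of adjusted calls depended on the tool and on 1 mouse: DESeq2 called 247 genes, limma voom with quality weights 5789, and edgeR without exercise replicate 4 called 1149.

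Most of the nominal differences ran along the base composition of the transcripts. Genes were ordered by GC content into 10 equal groups. In the lowest group, at a median of 40.5%, the median log2 fold change was 0.29 and 93.4% of genes were higher with exercise. In the highest group, at a median of 59.9%, the median log2 fold change was -0.31 and 8.13% of genes were higher. The nominal calls were split in the same way, with 478 higher and 4 lower in the lowest group and 5 higher and 600 lower in the highest. Across the 15982 genes with a GC value, which share the 12 libraries and are not independent, the log2 fold change had a Pearson r of -0.58 with GC content, 0.04 with transcript length and -0.11 with abundance. GC content thus held 33.2% of the variance of the fold changes across genes.

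**Figure D1:**
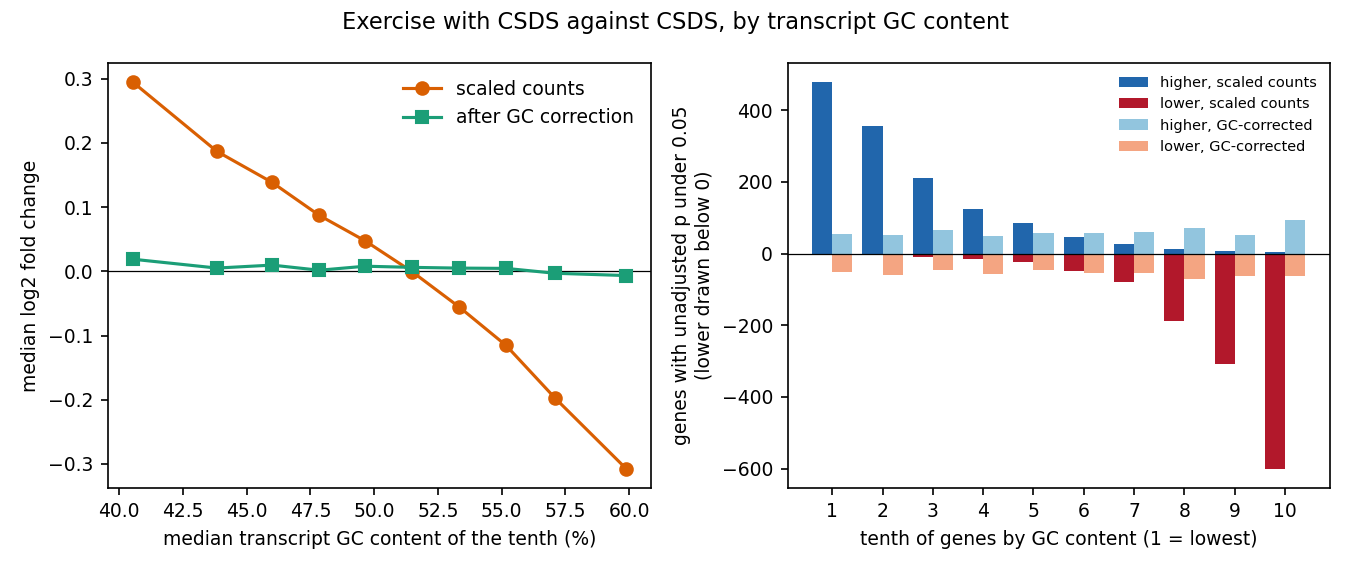
Left, the median log2 fold change (exercise with CSDS over CSDS) in 10 equal groups of genes ordered by transcript GC content (%), before (circles) and after (squares) correction for each library's GC trend. Right, the number of genes with an unadjusted p under 0.05 in each group, higher with exercise above 0 and lower below 0. The uncorrected medians run from 0.29 to -0.31 and the corrected medians stay between 0.02 and -0.01.

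The trend was also measured in each library, as the change in a gene's log2 deviation from its 12-library mean for every 10 points of GC. The 6 CSDS slopes were 0.22, 0.30, 0.28, -0.13, -0.03 and 0.20, and the 6 exercise slopes were -0.16, -0.17, -0.42, 0.22, -0.09 and -0.21. Exercise replicate 4 sat among the CSDS libraries and CSDS replicate 4 among the exercise libraries, so the groups overlapped. CSDS replicate 5 lay just below 0, above every exercise library except replicate 4. The mean slope was -0.14 ± 0.21 (SD, n = 6) with exercise, 0.14 ± 0.18 (SD, n = 6) with CSDS and 0.07 ± 0.15 (SD, n = 6) in controls. The difference of -0.28 had an exact two-sided permutation p of 0.026 and 0.0779 after Benjamini-Hochberg adjustment over the 3 slopes tested. Slopes on transcript length (difference 0.009, adjusted p = 0.623) and on abundance (difference -0.009, adjusted p = 0.623) gave far larger p-values in the same exact test. The share of counts from mitochondrially encoded genes was 3.46% ± 1.10 with exercise, 2.63% ± 0.92 with CSDS and 3.01% ± 1.02 in controls (SD, n = 6), with an exact permutation p of 0.19 between the first pair. The first principal component of the 12 libraries held 32.2% of the variance and followed the GC slope, with an r of -0.90 across libraries as a description.

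Removing each library's smooth GC trend shrank the fold changes and left 1 gene past the adjusted threshold (0.00614%), the same gene as before. The median size of the log2 fold change fell from 0.17 to 0.10, and the number of genes beyond 1.5-fold from 781 to 477 (2.93%), while those beyond 2-fold went from 128 to 114. Nominal calls numbered 1227 (7.54%), 645 higher (3.96%) and the rest lower (3.57%), and 71 genes (0.436%) had group ranges that did not overlap, 34 higher (0.209%) and 37 lower (0.227%). Of the 1380 genes that were nominally higher before correction, 407 (29.5%) were so in both fits, and of the 1302 nominally lower genes, 370 (28.4%). Genes past p under 0.05 in both fits had a median GC content near the middle, 47.6% for the higher and 54.8% for the lower. Those lost on correction lay further out, at 42.9% and 58.8%. Another 238 higher and 212 lower genes passed only after correction. DESeq2 called 13 genes after correction, among them Rftn1 (adjusted p = 0.000734), Klf15 (0.00826), Rilpl2 (0.0384), Tpbg (0.0394), Gm32687 (0.023) and Gm29216 (2.28e-05), and limma voom with quality weights called 376.

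Correction for GC content does not remove everything that moves with the slope. When the slope of each library was also entered as a covariate, a fit added after the data were seen, 89 of the 407 higher genes (21.9%) and 100 of the 370 lower genes (27.0%) still had p under 0.05, and 396 and 361 kept their sign. In that fit 993 genes (6.10%) were nominally higher and 830 (5.10%) lower. Values from this fit are called slope-adjusted below, and are given for the gene lists and for the genes described at most length. The mean slope itself differed between the groups (-0.14 with exercise, 0.14 with CSDS), so this covariate is partly confounded with exercise. Where a difference shrinks in this fit, library trend and group difference cannot be told apart.

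**Figure D2:**
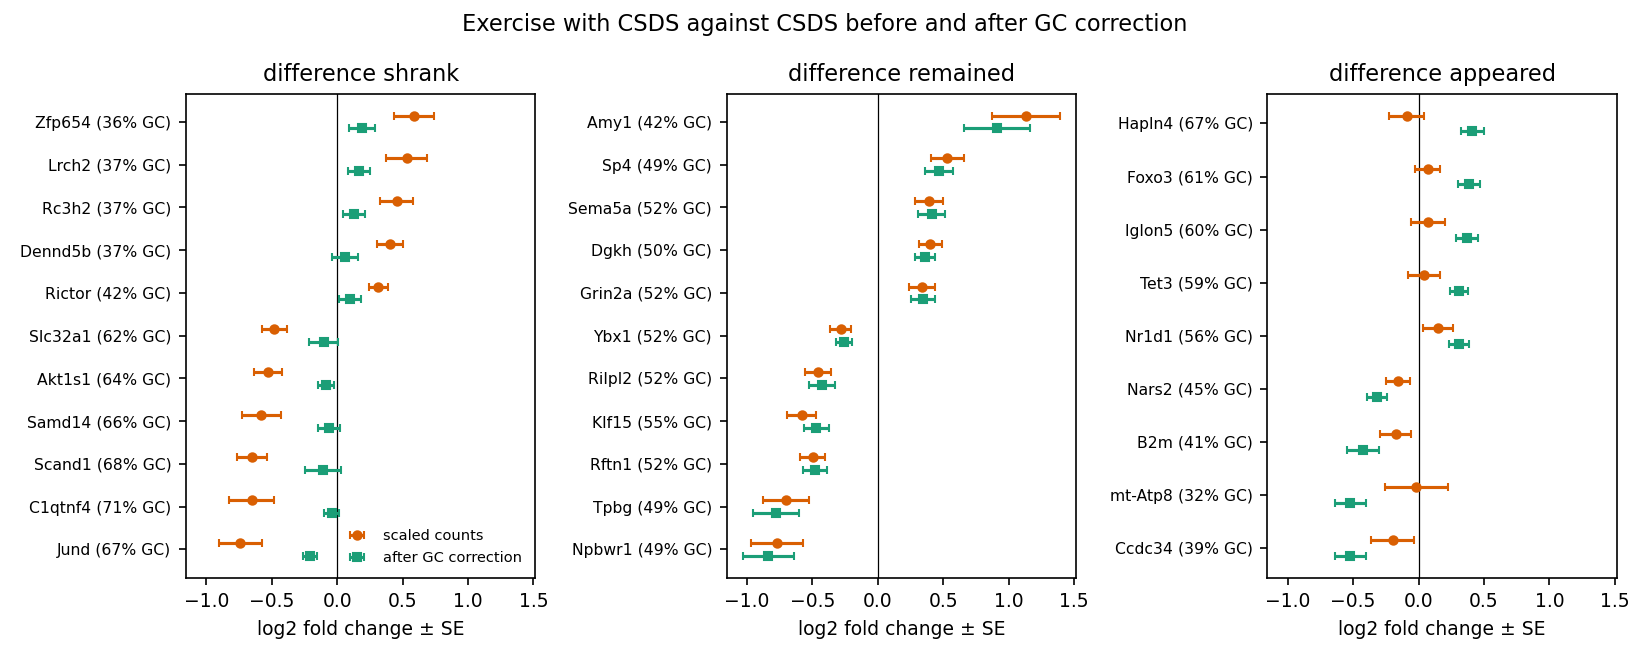
Log2 fold changes (exercise with CSDS over CSDS, points) with standard errors (bars) before and after GC correction, for genes whose difference shrank, remained or appeared, with each gene's transcript GC content in brackets. Scand1 moves from -0.65 to -0.11, Klf15 stays between -0.58 and -0.47, and Foxo3 moves from 0.07 to 0.39.

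The one gene that passed the adjusted test was Gm37421, a processed pseudogene on chromosome 3, at positions 10232180 to 10232311 on the plus strand of GRCm38 (ENSMUSG00000104434). Its level was low: 0.773, 1.58 and 3.30 CPM as the lowest, median and highest of the exercised mice, from 15 to 74 counts per library. Among the 6 CSDS libraries, 5 were at 0 and the other held 1 count, and 2 of the 6 controls were at 0 while their mean was 0.476 ± 0.707 CPM (SD, n = 6). Its level rose with exercise by a ratio of summed counts, scaled to library size, of 235, with a 95% exact interval of 41.7 to 9315 that covers counting error only. In edgeR the adjusted p was 0.000353 before and 5.08e-05 after correction, and without CSDS replicate 1, the one with a count, it was 0.0586 before and 0.0149 after. A count of 0 allows up to 3 counts, or 0.136 to 0.152 CPM in these libraries. Reads of a processed pseudogene can be shared with near-identical copies elsewhere, so its count is uncertain.

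A pair of other predicted genes had large fold changes without passing. Gm29216 was at 0.614, 1.74 and 13.7 CPM (lowest, median, highest) with exercise and at 9.51, 214 and 277 CPM with CSDS, against 66.6 ± 62.9 (SD, n = 6) in controls. Its log2 fold change was -5.39 ± 0.90 (edgeR adjusted p = 0.195) and -5.59 after correction (adjusted p = 0.413). The ranges met at 1 library on each side, since exercise replicate 4 held 13.7 CPM and CSDS replicate 5 held 9.51. Gm32687 was at 2.30, 3.11 and 3.89 CPM with exercise and 0.95, 1.25 and 2.08 with CSDS, and the groups did not overlap in either fit.

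The genes that kept at least 80% of their fold change after correction were led, among the lower ones, by Klf15 and Rftn1. Klf15 encodes a Krüppel-like transcription factor that glucocorticoids induce. Its level was 15.3, 16.3 and 20.3 CPM (lowest, median, highest) with exercise, against 21.8, 24.8 and 32.9 with CSDS and 23.6 ± 3.14 (SD, n = 6) in controls. All 6 exercised mice lay below all 6 CSDS mice, before and after correction. The log2 fold change was -0.58 ± 0.11 (SE; edgeR adjusted p = 0.195), -0.47 ± 0.10 after correction (adjusted p = 0.434) and -0.43 slope-adjusted. Rftn1, which encodes a lipid raft protein, was at 11.3, 12.5 and 15.1 CPM with exercise and 16.7, 17.5 and 20.7 with CSDS, with 14.2 ± 4.72 (SD, n = 6) in controls. Its groups also separated in both fits, and its fold change was nearly the same in all of them, at -0.50 ± 0.10, -0.48 ± 0.09 and -0.52.

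Surface and signalling genes followed. Npbwr1, the receptor for neuropeptides B and W, was at 0.666, 1.37 and 1.56 CPM with exercise against 1.83, 2.22 and 2.45 with CSDS. Its groups did not overlap, and the log2 fold change was -0.77 ± 0.20 before and -0.84 ± 0.20 after correction. Tpbg, a membrane glycoprotein with leucine-rich repeats, was at 3.70, 5.99 and 7.68 CPM against 7.47, 10.1 and 12.2, and its ranges overlapped by little. It had fold changes of -0.70 ± 0.18 and -0.78 ± 0.18. Rilpl2, a protein tied to cilia and membrane traffic, was at 9.63, 11.2 and 13.8 CPM against 13.8, 15.9 and 17, with -0.45 ± 0.10 and -0.43 ± 0.10. Each of these 3 genes kept its difference with the slope as covariate (-0.79, -0.79 and -0.47).

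Other lower genes that persisted included several that bind RNA or DNA. Ybx1, a cold-shock domain protein that binds RNA and DNA, was at 115, 125 and 154 CPM with exercise and 148, 153 and 172 with CSDS. The highest exercise value, from replicate 4, was the one that reached the CSDS range, and the log2 fold change was -0.29 ± 0.08 and -0.26 ± 0.06 after correction, when the groups separated. Its relative Ybx3 was at -0.39 and -0.43, and Hexim1, an inhibitor of the elongation factor P-TEFb, at -0.35 and -0.40, but with the slope as covariate these 2 came to -0.20 and -0.18. Sf3b5, a subunit of the splicing factor SF3B, was at -0.24 before and -0.38 after correction. Lxn, a carboxypeptidase inhibitor, was at -0.23 and -0.35. Sp9, a zinc finger factor of interneuron development, was at -0.68 and -0.62, and Frmpd3, a scaffold-type protein, at -0.53 and -0.60. Slope-adjusted values were -0.32 for Sf3b5, -0.32 for Lxn, -0.38 for Sp9 and -0.22 for Frmpd3.

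Among the higher genes that persisted, Sp4 separated the groups. Sp4 is a transcription factor of the Sp family that is abundant in neurons. Its level was 16.3, 19.1 and 23.8 CPM (lowest, median, highest) with exercise, 11, 13.8 and 15.8 with CSDS and 15.2 ± 1.44 (SD, n = 6) in controls. The log2 fold change was 0.53 ± 0.12 before and 0.46 ± 0.11 after correction (edgeR adjusted p = 0.434), and 0.27 slope-adjusted. Mboat2, a lysophospholipid acyltransferase, also separated in both fits, with 51.8, 57.1 and 68.0 CPM against 41.5, 44.8 and 50.1. It kept less than 80% of its fold change, which went from 0.37 to 0.23 (0.26 slope-adjusted), so it was not among the persisting genes.

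Several higher genes act in neuronal signalling. Dgkh, a kinase that turns diacylglycerol into phosphatidic acid, was at 108, 136 and 144 CPM with exercise and 90.5, 102 and 113 with CSDS, and only exercise replicate 6, at the low end, reached into the CSDS range. Its log2 fold change was 0.40 ± 0.09 and 0.36 ± 0.08. Sema5a, a semaphorin that guides axons, was at 127, 156 and 192 CPM against 102, 117 and 146, with 0.39 ± 0.11 and 0.41 ± 0.10. Grin2a, the GluN2A subunit of NMDA receptors, was at 278, 367 and 405 CPM against 247, 288 and 311, with 255 ± 30.3 (SD, n = 6) in controls and fold changes of 0.34 ± 0.10 in both fits. These 3 overlapped between groups and held up with the slope as covariate, at 0.35, 0.40 and 0.28.

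The remaining higher genes were mixed, and some fell with the slope as covariate or without certain mice. Amy1, an amylase, was at 3.92, 6.02 and 10.8 CPM with exercise and 2.10, 2.87 and 4.80 with CSDS, with log2 fold changes of 1.13 ± 0.26 and 0.91 ± 0.25, and 0.96 slope-adjusted. Cpeb3, which binds cytoplasmic polyadenylation elements, was at 0.18 and 0.35, and Igsf9b, an adhesion protein of inhibitory synapses, at 0.33 and 0.60. With the slope as covariate Cpeb3 was at 0.17 and Igsf9b at 0.25. Rab37, a Rab GTPase, had the largest value, 1.94 after correction, but its exercise range ran from 1.96 to 21.8 CPM around a median of 3.44, and without exercise replicates 3 and 6 its fold change was 0.60.

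**Figure D3:**
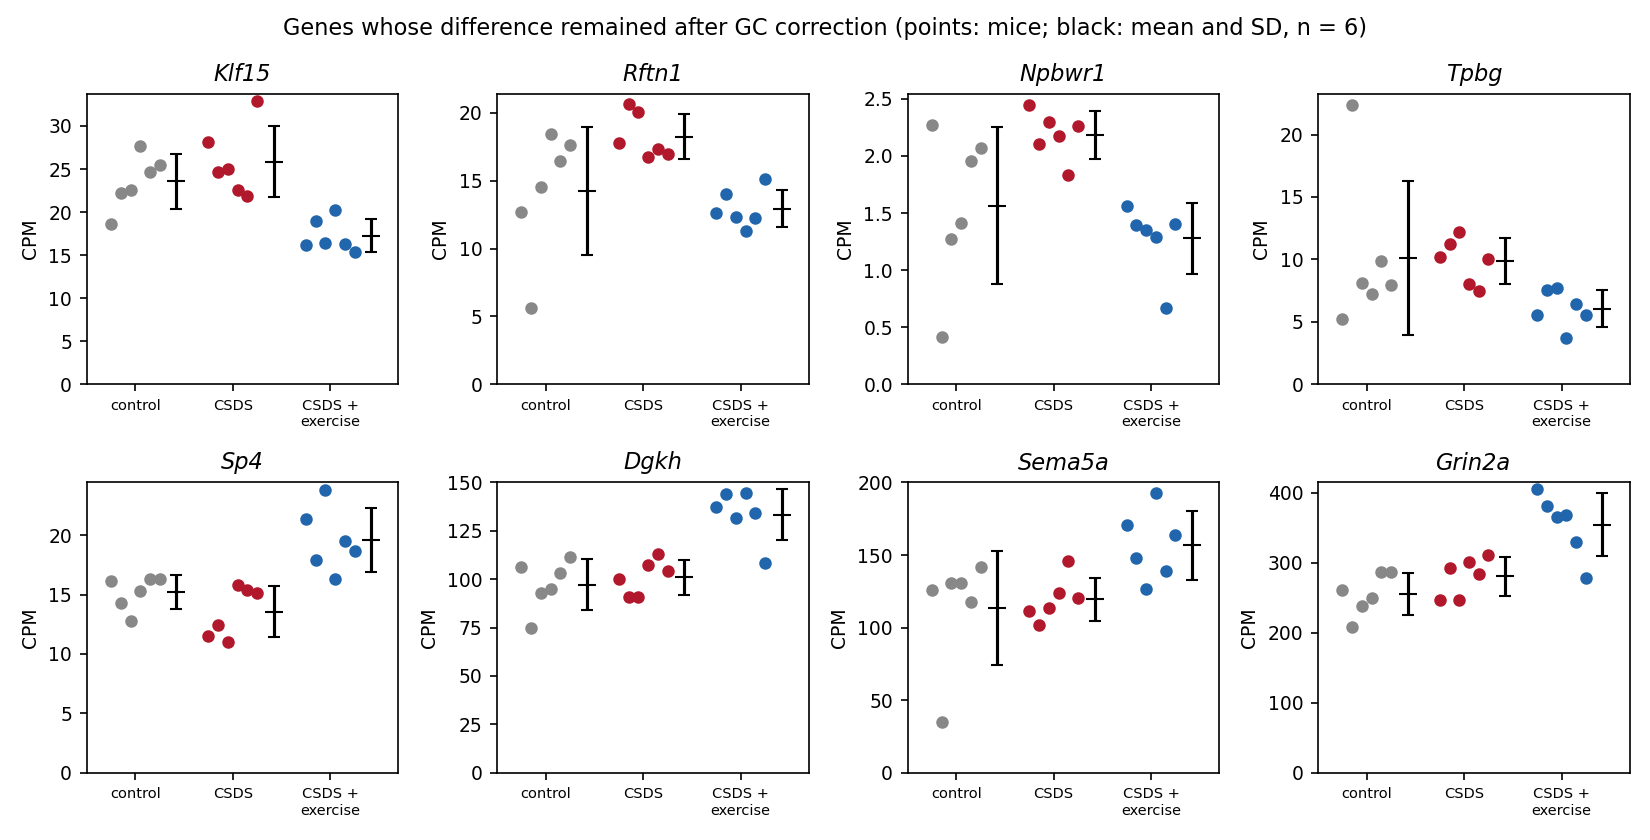
Levels in CPM of 8 genes whose difference remained after GC correction, 1 point per mouse, with mean and SD (n = 6) in black, for control, CSDS and CSDS with exercise. Exercised mice lie below all CSDS mice for Klf15, Rftn1 and Npbwr1 and above all of them for Sp4.

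Genes at the ends of the GC range lost most of their difference. Scand1, a SCAN domain protein with a transcript GC content of 68.4%, was at 6.18, 7.64 and 9.47 CPM with exercise and 11.1, 11.9 and 13.8 with CSDS, groups that did not overlap. Its log2 fold change was -0.65 ± 0.11 (SE) and -0.11 ± 0.14 after correction, with -0.35 slope-adjusted. C1qtnf4, a secreted C1q and TNF-related protein at 70.7% GC, went from -0.65 to -0.04, and Samd14 from -0.58 to -0.06. Jund, an AP-1 subunit at 67.1% GC, went from -0.74 ± 0.17 to -0.20 ± 0.05, and the smaller difference separated the groups after correction.

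At the other end, Zfp654, a zinc finger gene at 35.7% GC, was at 13.9, 18 and 26.2 CPM with exercise and 9.06, 13.3 and 13.8 with CSDS, also without overlap, and went from 0.59 ± 0.15 to 0.19 ± 0.10, with 0.31 slope-adjusted. Dennd5b, an activator of Rab GTPases at 37.5% GC, went from 0.40 to 0.06. Spock3, a secreted proteoglycan, went from 0.70 to 0.32, Lrch2 from 0.53 to 0.17 and Rc3h2, an RNA-binding ubiquitin ligase, from 0.46 to 0.13. The mTOR pathway held one example of each kind. Rictor, the core of mTOR complex 2, went from 0.32, with separate groups, to 0.10, and Akt1s1, an inhibitor of mTOR complex 1, from -0.53 to -0.09. Eif4ebp1, the translation repressor that mTOR complex 1 phosphorylates, did not follow: it was at 0.831, 1.32 and 1.49 CPM with exercise and 1.57, 1.82 and 2.02 with CSDS, and its fold change was -0.54 in both fits with no overlap in either, and -0.38 slope-adjusted.

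Other differences appeared only once the trend was taken out. Foxo3, a forkhead factor of stress resistance and metabolism at 60.9% GC, was at 72.8, 78.1 and 101 CPM with exercise and 70.0, 76.7 and 92.5 with CSDS, levels that overlapped almost entirely. Its log2 fold change was 0.07 ± 0.10 and became 0.39 ± 0.08 (edgeR adjusted p = 0.434), with separate groups. Tet3, a 5-methylcytosine dioxygenase, went from 0.04 to 0.31 ± 0.07 and Iglon5, a neuronal adhesion protein, from 0.07 to 0.37, both separating the groups after correction. Hapln4, a link protein of perineuronal nets, went from -0.09 to 0.41. In the other direction, Ccdc34 went from -0.20 to -0.52 and Nars2, the mitochondrial asparaginyl-tRNA synthetase, from -0.16 to -0.32, again with separate groups. Slope-adjusted values were 0.28 for Foxo3, 0.36 for Tet3, 0.38 for Iglon5, 0.35 for Hapln4, -0.49 for Ccdc34 and -0.28 for Nars2. Since these values rest on the correction itself, they hold only as far as the smooth trend describes each library.

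Functional classes were read from 45 gene lists with 1714 tested memberships. Their medians can be set against all genes tested, at 0.02 before and 0.01 after correction. After correction the lowest medians, choroid plexus genes apart, were those of the interferon-stimulated, MHC class I, collagen, mural cell and immediate early gene lists, and the highest was that of thalamic neuron markers. Lists whose members have extreme GC content moved most on correction: KRAB zinc finger genes, at a median of 43.2% GC, went from 0.25 to 0.04, and mitochondrially encoded genes from 0.43 to 0.07. No list member passed the adjusted threshold in either edgeR fit.

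**Figure D4:**
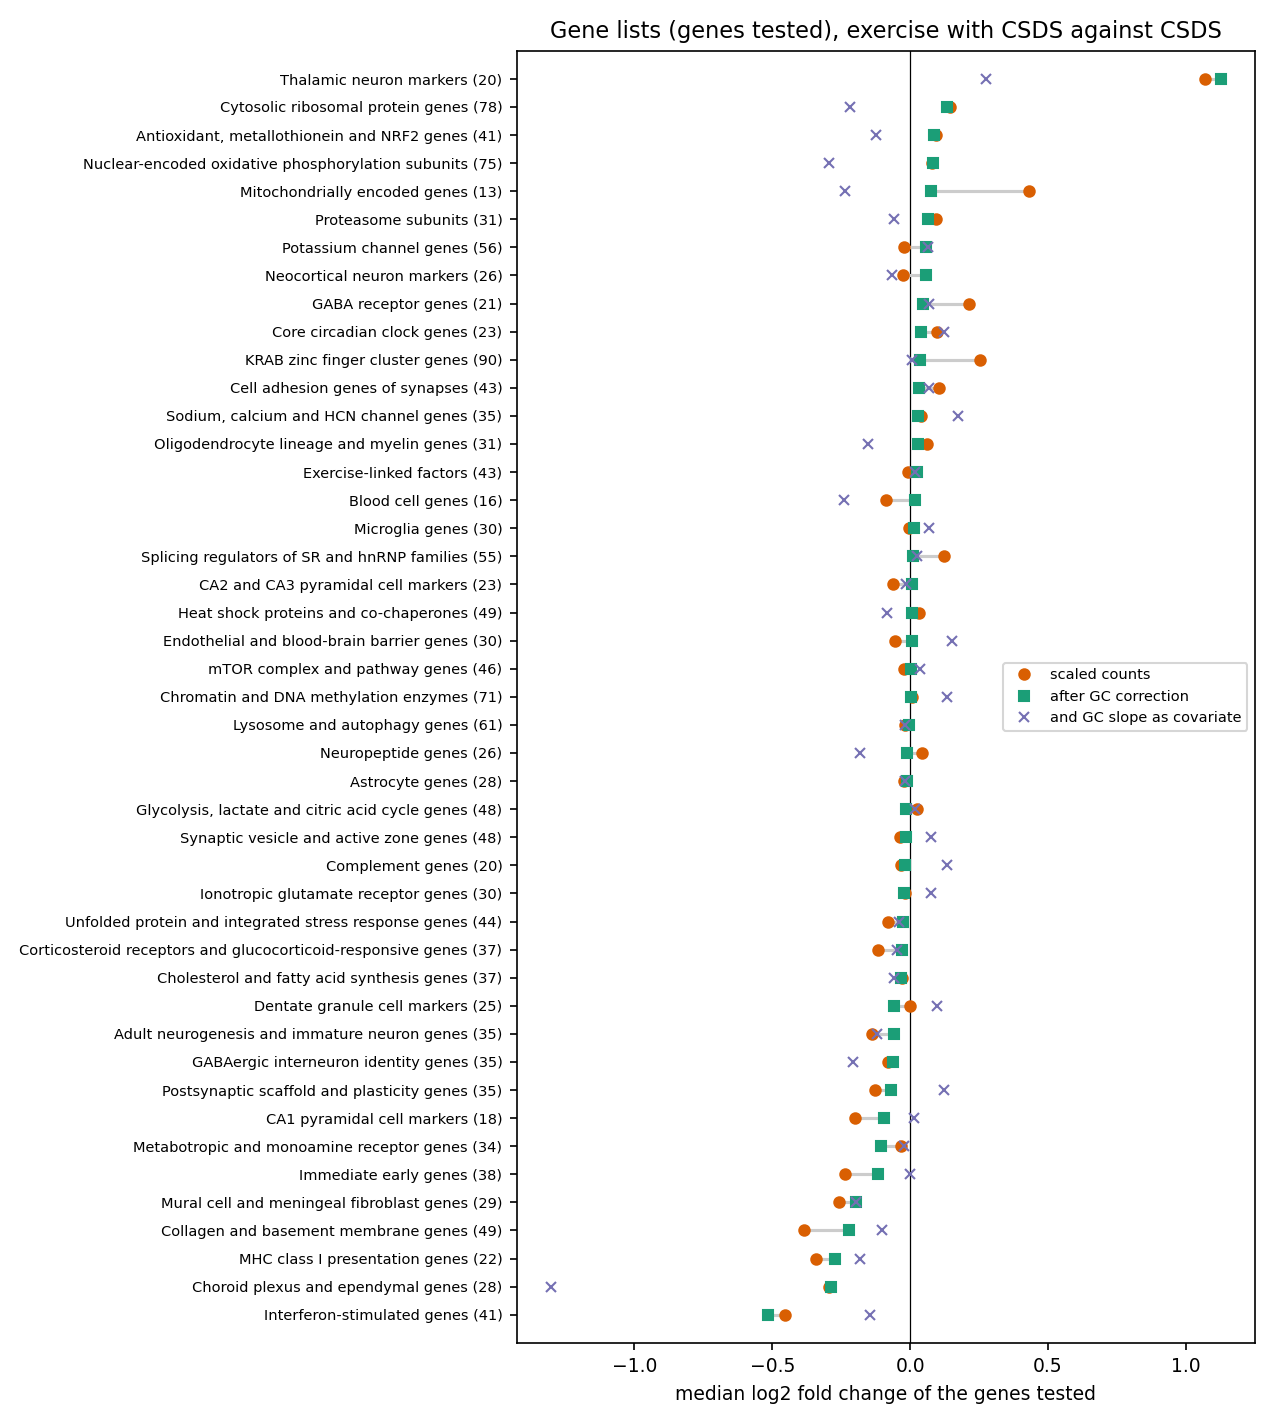
Median log2 fold change (exercise with CSDS over CSDS) of the tested genes of 45 lists, with the number of genes in brackets, before correction (circles), after GC correction (squares) and with the GC slope also as covariate (crosses). Interferon-stimulated genes lie at -0.45, -0.52 and -0.14, and thalamic neuron markers at 1.07, 1.13 and 0.28.

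Interferon-stimulated genes leaned lower with exercise in both fits. Of 41 tested, 38 had a negative log2 fold change before correction and 39 after, with medians of -0.45 and -0.52. Nominal p-values under 0.05 were reached by 13 lower genes before correction and 18 after, none higher, where 8.0% and 3.57% of all genes did so. Promoters of 3 members and of B2m, an interferon-responsive MHC class I gene, are printed because the class shares a promoter element that interferon-activated factors bind. They are RefSeq windows on GRCm38.p6, 250 bases before to 50 after the start, printed 5′ to 3′ on the gene's strand. Capitals mark GAAA, then any 2 bases, then GAAA, found on either strand, with overlapping matches joined.
Ifit3 (chr19:34583279-34583578, plus strand): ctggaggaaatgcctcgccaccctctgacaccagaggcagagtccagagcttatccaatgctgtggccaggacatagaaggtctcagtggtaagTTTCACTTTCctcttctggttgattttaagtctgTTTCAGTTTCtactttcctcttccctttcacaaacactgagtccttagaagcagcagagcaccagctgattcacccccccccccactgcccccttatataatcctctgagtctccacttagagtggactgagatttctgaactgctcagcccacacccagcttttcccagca
Ifit1 (chr19:34640639-34640938, plus strand): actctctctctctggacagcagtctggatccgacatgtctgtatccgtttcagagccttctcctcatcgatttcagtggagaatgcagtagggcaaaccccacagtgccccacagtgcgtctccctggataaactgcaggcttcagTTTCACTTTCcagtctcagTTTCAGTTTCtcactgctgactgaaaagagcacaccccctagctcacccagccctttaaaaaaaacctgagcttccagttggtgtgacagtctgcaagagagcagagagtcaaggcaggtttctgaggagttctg
Isg15 (chr4:156200769-156201068, minus strand): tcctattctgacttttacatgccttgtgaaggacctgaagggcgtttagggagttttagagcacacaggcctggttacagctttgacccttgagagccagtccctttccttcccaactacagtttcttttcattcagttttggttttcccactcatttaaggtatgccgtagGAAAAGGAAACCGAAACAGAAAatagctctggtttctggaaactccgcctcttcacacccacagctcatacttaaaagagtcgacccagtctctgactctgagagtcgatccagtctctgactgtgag
B2m (chr2:122147437-122147736, plus strand): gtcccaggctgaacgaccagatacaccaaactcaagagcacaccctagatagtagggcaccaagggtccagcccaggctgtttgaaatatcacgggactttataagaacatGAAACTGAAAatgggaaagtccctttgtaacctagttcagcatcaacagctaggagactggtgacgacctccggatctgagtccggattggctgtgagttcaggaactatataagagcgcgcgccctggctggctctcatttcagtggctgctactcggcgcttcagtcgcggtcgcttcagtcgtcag
The motif stood in the window of 17 of the 30 interferon-stimulated genes with a promoter in the table (56.7%), of 5 of 19 MHC class I genes (26.3%) and of 1079 of all 27025 genes (3.99%). Ifit1 and Isg15 were chosen for printing after their values were seen. Their log2 fold changes after correction were -1.09 ± 0.42 for Ifit1 and -0.64 ± 0.32 for Isg15.

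Irf7, the factor that amplifies type I interferon production, was at 2.08, 3.13 and 5.66 CPM (lowest, median, highest) with exercise, 2.08, 11.8 and 18.6 with CSDS and 5.35 ± 2.73 (SD, n = 6) in controls. The exercised mice were all low, and the CSDS mice were divided, with replicates 4 and 5 at 2.17 and 2.08 and the other 4 from 11.4 to 18.6 CPM. The log2 fold change of Irf7 was -1.58 ± 0.47 and -1.36 ± 0.44 after correction, and -0.27 slope-adjusted (edgeR adjusted p = 0.549 after correction). Ifit3, an antiviral protein induced by interferon, was at 6.08, 8.55 and 12.0 CPM against 6.36, 15.8 and 19.5, with -0.71 ± 0.26 and -0.82 ± 0.28, and -0.25 slope-adjusted. Mx2, a dynamin-like antiviral GTPase, was at 0.467, 0.566 and 0.824 CPM against 0.647, 1.25 and 2.21, with -1.11 ± 0.29 and -1.16 ± 0.29, and -0.79 slope-adjusted. In each of these genes the lowest CSDS mice reached the exercise range.

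The division among CSDS mice held for the whole list. Its mean GC-corrected log2 CPM was 2.56, 2.33, 2.96, 1.49, 1.61 and 2.57 in CSDS replicates 1 to 6, and ran from 1.32 to 2.17 with exercise and from 1.61 to 2.46 in controls. CSDS replicates 4 and 5, the low ones, were also the CSDS libraries with a negative GC slope. With the slope as covariate the median of the list was -0.14, 29 of 41 genes were negative and 0 had p under 0.05 in edgeR. Other settings moved the corrected list both ways. Without CSDS replicate 5, a low mouse, the median was -0.62 and 27 genes were nominally lower, against 725 of all 16429 tested. With the mitochondrial share as covariate the median was -0.35 and 1 gene was nominally lower, against 574 of all 16282. With the replicate block the median was -0.47 and 11 were, against 351 of all 16282. Microglia genes, the list of the cell type known for strong interferon responses, had medians of -0.01 and 0.01, with summed levels of 750 to 1027 CPM with exercise and 798 to 892 with CSDS. In bulk tissue fewer cells of a type and less RNA per cell cannot be told apart.

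MHC class I presentation genes ran parallel at smaller size. Of 22 tested, 19 were negative in both fits, with medians of -0.34 and -0.27, and 9 and then 8 were nominally lower, where 8.0% and 3.57% of all genes were. The list's mean GC-corrected log2 CPM was 3.63 and 3.65 in CSDS replicates 4 and 5, within the exercise range of 3.47 to 3.94, and 3.98 to 4.20 in the other CSDS mice. H2-K1, a classical class I heavy chain, was at 28.2, 39.0 and 48.8 CPM with exercise against 42.6, 65.9 and 78.7 with CSDS and 53.3 ± 13.6 (SD, n = 6) in controls, and the ranges overlapped. Its log2 fold change was -0.70 ± 0.17, -0.54 ± 0.14 after correction and -0.33 slope-adjusted. H2-D1, the other classical chain, was at -0.70 and -0.65, and the nonclassical H2-Q6 at -1.39 and -1.15. Class I heavy chain genes are near-identical in long stretches, so the split of reads among them is uncertain. B2m, the light chain common to all class I molecules, was at 61.6, 80.9 and 106 CPM against 84.3, 97.3 and 103, and went from -0.17 ± 0.12 to -0.43 ± 0.12 on correction, its transcripts having a GC content of 41.2%. With the slope as covariate the list's median was -0.18 and 0 genes had p under 0.05.

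Extracellular matrix genes leaned lower before and after correction. With the slope as covariate the median of the collagen list weakened, and that of mural cell and fibroblast markers did not. Of 49 collagen and basement membrane genes, 41 were negative before correction and 39 after, and the median went from -0.38 to -0.22, with 11 and then 6 nominally lower, against 8.0% and 3.57% of all genes. The slope-adjusted median was -0.10, 32 genes were negative, and 2 were nominally higher and 0 lower. Col1a1 and Col1a2, the chains of fibrillar collagen I, had log2 fold changes of -0.87 ± 0.27 and -0.57 ± 0.16, of -0.67 ± 0.24 and -0.71 ± 0.18 after correction, and of -0.31 and -0.39 slope-adjusted. Col1a2 was at 16.2, 21 and 26.7 CPM with exercise against 21.8, 30.5 and 44.4 with CSDS, ranges that overlapped. Col3a1, which co-assembles with them, was at -0.64 and -0.67. The markers of mural cells and meningeal fibroblasts, some of them collagens, had medians of -0.26 and -0.20 over 29 genes, with 24 negative and 5 nominally lower after correction. Slope-adjusted, the median of these markers was still -0.20 and 22 were negative, and 3 were nominally higher and 0 lower. In that fit 6.10% of all genes were nominally higher and 5.10% lower. Their summed level was 1001 to 1725 CPM with exercise, 1300 to 1916 with CSDS and 856 to 1918 in controls. The part of meningeal tissue in the matrix values was not tested.

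Immediate early genes leaned lower with exercise, less so after correction. Of 38 tested, 30 and then 28 were negative, the median went from -0.24 to -0.12, and 11 and then 8 were nominally lower, against 8.0% and 3.57% of all genes. Junb, an AP-1 subunit, was at 24.9, 32.5 and 59.4 CPM with exercise and 37.5, 62.6 and 74.6 with CSDS, with 70.0 ± 19.7 (SD, n = 6) in controls, and its log2 fold change went from -0.69 ± 0.22 to -0.31 ± 0.11, with -0.08 slope-adjusted. The highest exercise value again came from replicate 4. Jun was at -0.45 and -0.31, Ier5 at -0.34 and -0.31 and Egr2, a zinc finger factor, at -0.99 and -0.94. Fos, the usual marker of recent activity, was at 4.84, 6.39 and 9.05 CPM with exercise, 2.96, 8.79 and 12.7 with CSDS and 20.1 ± 14.8 (SD, n = 6) in controls, with -0.40 ± 0.27 and -0.23 ± 0.24. Npas4, which neurons induce on calcium entry, was at -0.50 and -0.35. Arc, which acts at active synapses, was at 41.8, 53.3 and 155 CPM against 44.9, 110 and 149, with -0.58 ± 0.33 and -0.34 ± 0.26. With the slope as covariate the list had a median of 0.00 and 2 nominally lower genes, where 5.10% of all genes were lower.

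Stress hormone genes showed little beyond Klf15. Over 37 corticosteroid receptor and glucocorticoid-responsive genes the median was -0.12 and -0.03, with 1 higher and 2 lower at p under 0.05 in both fits. Over all genes 8.48% were higher and 8.0% lower before correction, and 3.96% and 3.57% after, so the counts were not far from those shares. Nr3c1, the glucocorticoid receptor, was at 67.9, 71.8 and 95.1 CPM with exercise and 55.6, 63.4 and 82.2 with CSDS, and its log2 fold changes of 0.28 ± 0.12 and 0.33 ± 0.14 came to 0.02 with the slope as covariate. Fkbp5, a receptor co-chaperone that glucocorticoids induce, was at -0.10 ± 0.12 and -0.10 ± 0.11. Sgk1, a kinase they induce, was at -0.12 ± 0.17 and -0.18 ± 0.17, with 56.0 to 121 CPM with exercise and 69.7 to 110 with CSDS, both below the control mean of 151 ± 32.0 (SD, n = 6). In the circadian clock list, Nr1d1, the repressor REV-ERB alpha, went from 0.15 ± 0.11 to 0.31 ± 0.07, and Per1, the light- and hormone-induced period gene, from -0.23 to 0.04.

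Genes linked with exercise in brain held nominal differences before GC correction and with the slope as covariate, but none after GC correction alone. Of 43 tested, 5 were nominally higher and 4 lower before correction, where 8.48% and 8.0% of all genes were. After correction 0 were, against 3.96% and 3.57% of all genes. With the slope as covariate 3 were nominally higher and 0 lower, where 6.10% and 5.10% of all genes were. Bdnf was at 25.7, 29.4 and 36.6 CPM with exercise, 22.1, 26.1 and 35.5 with CSDS and 24.7 ± 6.03 (SD, n = 6) in controls, and its log2 fold change was 0.14 ± 0.12 before and -0.10 ± 0.13 after correction. Its receptor Ntrk2 was at 0.06 ± 0.07 and 0.00 ± 0.06. The growth factors Igf1 and Vegfa were at 0.26 ± 0.23 and -0.15 ± 0.15 after correction. Fndc5, the precursor of irisin, was at 0.15 ± 0.08 and Ppargc1a, the coactivator of mitochondrial biogenesis, at 0.08 ± 0.11.

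Neurogenesis genes were mixed. Over 35 genes the median was -0.14 and -0.06, with 2 higher and 5 lower before correction and 1 higher and 6 lower after. The shares over all genes were 8.48% and 8.0% before and 3.96% and 3.57% after. Dcx, a microtubule protein of immature neurons, was at 13.8, 16 and 21.4 CPM with exercise and 10.3, 12.6 and 15.5 with CSDS, and its log2 fold change went from 0.35 ± 0.13 to 0.12 ± 0.08. Mki67, a marker of dividing cells, was at -0.30 ± 0.19 and -0.40 ± 0.18. Of the 35 genes, 14 were positive and 21 negative before correction, and 12 and 23 after, with values up to 0.71 and 0.75. The negative ones included Sox4 at -0.30 and -0.30, Tubb2b at -0.40 and -0.33 and Draxin, an axon guidance protein, at -0.61 and -0.51. Prox1, the homeobox factor of dentate granule cells and some interneurons, was at 87.9, 101 and 145 CPM with exercise and 83.2, 86.3 and 93.1 with CSDS. Its fold change was 0.29 ± 0.10, then 0.31 ± 0.09 with separate groups after correction, and 0.41 slope-adjusted.

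Among 35 interneuron identity genes, 11 were nominally lower before correction and 6 after, and 1 was higher in each fit, where 8.0% and 3.57% of all genes were lower. The list's median was -0.08, then -0.06, and with the slope as covariate -0.21. In that last fit 30 genes were negative and 10 nominally lower, against 5.10% of all genes. Its mean GC-corrected log2 CPM was 4.64 in exercise replicate 4, against 4.89 to 5.16 in the other 11 mice. Maf, a transcription factor of some interneurons, was at 14.4, 17.6 and 22.2 CPM with exercise and 20.2, 24.1 and 25.5 with CSDS, ranges that overlapped. Its log2 fold change was -0.36 ± 0.11 and -0.38 ± 0.11 after correction, and Dlx5, a homeobox factor of interneuron development, was at -0.60 and -0.47. Slc32a1, the vesicular GABA transporter, at 61.9% GC, went from -0.48 ± 0.10 to -0.10 ± 0.11, while Gad1, a GABA-synthesizing enzyme, was at -0.08 and -0.06. GABA receptor genes, with a median of 45.9% GC, went the other way, from 0.21 to 0.05. Gabra4 was at 0.53 and 0.35, the extrasynaptic subunit Gabrd at 0.33 and 0.52, and Gabra2 at 0.11 and -0.24.

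Ion channels carry the currents that set neuronal excitability. In the potassium channel list 11 of 56 were nominally higher and 6 lower before correction, 8 and 3 after, where 8.48% and 8.0%, then 3.96% and 3.57%, of all genes were. Kcnd2, the Kv4.2 channel of dendrites, was at 112, 127 and 144 CPM with exercise and 88.9, 95.4 and 106 with CSDS, without overlap, and its log2 fold change went from 0.39 ± 0.08 to 0.23 ± 0.11, with 0.43 slope-adjusted. Kcnq3, a subunit of the M channel, was at 0.32 and 0.21, and Kcnn2, a calcium-activated channel, at -0.31 and -0.32. Cadm2, a synaptic adhesion protein, was at 158, 194 and 275 CPM against 113, 135 and 165, with 0.54 ± 0.13 and 0.42 ± 0.10, and Il1rapl1, a synapse organizer, at 0.66 and 0.37.

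The zinc finger and splicing lists, of low GC content, moved towards 0 on correction. Of 90 KRAB zinc finger genes, repressors of transposable elements among other targets, 83 were positive before correction and 53 after, and 20 and then 6 were nominally higher, against 8.48% and 3.96% of all genes. Zfp266 was at 25.3, 35.7 and 37.8 CPM with exercise and 23.9, 25.2 and 29.9 with CSDS, and went from 0.38 ± 0.10 to 0.23 ± 0.07. SR and hnRNP splicing regulators went from a median of 0.12 to 0.01. Of the 55 tested, 12 were nominally higher and 4 lower before correction, and 4 and 4 after. The shares over all genes were 8.48% and 8.0% before, and 3.96% and 3.57% after. Among the 71 chromatin enzymes, at a median of 51.0% GC, the medians were 0.01 and 0.00. Their slope-adjusted median was 0.13, with 25 nominally higher and 0 lower, where 6.10% and 5.10% of all genes were. The methylcytosine dioxygenases Tet1 and Tet2 were at 0.29 and 0.33 before correction and 0.25 and 0.19 after.

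Translation and respiration genes leaned higher by small amounts. Of 78 cytosolic ribosomal protein genes, 69 were positive before correction and 70 after, with medians of 0.14 and 0.13. Yet 0 were nominally higher and 3 lower before correction, and 1 was higher and 0 lower after. Over all genes 8.48% were higher and 8.0% lower before correction, and 3.96% and 3.57% after. Their mean GC-corrected log2 CPM was 6.95, 6.87, 6.74, 7.45, 7.43 and 6.87 in CSDS replicates 1 to 6 and 7.33, 7.29, 7.30, 6.63, 7.46 and 7.25 in exercise replicates 1 to 6. CSDS replicates 4 and 5 were thus high and exercise replicate 4 low, the same 3 libraries whose GC slopes lay on the other group's side of 0. With the slope as covariate the median turned to -0.22 and 29 genes were nominally lower, against 5.10% of all genes in that fit. The 75 nuclear-encoded oxidative phosphorylation subunits behaved alike, with medians of 0.08 in both fits and -0.29 slope-adjusted, when 38 were nominally lower. Among them Atp5d, an ATP synthase subunit at 60.2% GC, went from -0.40 ± 0.07 with separate groups to -0.10 ± 0.12. The direction of these lists therefore turned with the handling of the library trend.

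Mitochondrially encoded genes had low GC content and large spreads. Of 13, 12 were positive before correction and 9 after, with medians of 0.43 and 0.07, and -0.24 slope-adjusted. mt-Nd4l, a subunit of complex I, was at 21.3, 81.9 and 108 CPM with exercise and 16, 33.8 and 50.4 with CSDS, and its log2 fold change was 1.19 ± 0.32 and 0.92 ± 0.25. The neighbours mt-Atp6 and mt-Atp8, subunits of ATP synthase whose reading frames overlap, pointed apart after correction, at 0.63 ± 0.25 and -0.52 ± 0.12, so the split of their reads is uncertain.

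The largest list median, in thalamic neuron markers, rested on 2 mice. Of 20 tested genes 19 and then 20 were positive, with medians of 1.07 and 1.13. Tcf7l2, a transcription factor that marks thalamus, was at 4.64, 6.03 and 144 CPM with exercise and 4.03, 4.80 and 5.89 with CSDS, and the high values were 32.7 in exercise replicate 3 and 144 in replicate 6. Controls were divided too, with 69.8 CPM in replicate 3 and 28.8 in replicate 1 against at most 7.90 in the others. Ramp3, a receptor activity-modifying protein, and Tnnt1, a troponin found in thalamus, had log2 fold changes of 2.02 and 2.24 after correction. Without exercise replicates 3 and 6, a setting added after the data were seen, the median of the list was -0.10, Tcf7l2 was at 0.19, Ramp3 at 0.28 and Tnnt1 at 0.01. The number of genes nominally different after correction was 1367 without these mice, against 1227 with them.

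**Figure D5:**
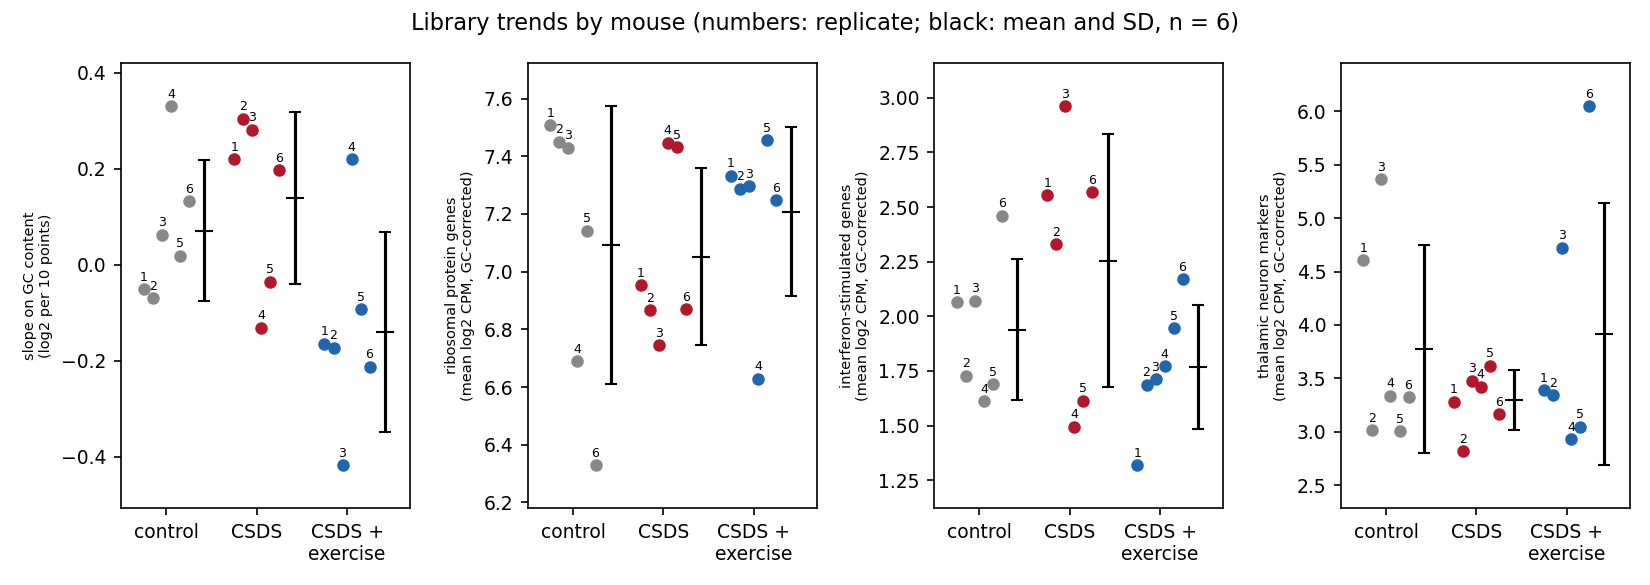
Per-mouse values, labelled by replicate, of the slope on GC content (log2 per 10 points) and of the mean GC-corrected log2 CPM of ribosomal protein, interferon-stimulated and thalamic marker genes, with mean and SD (n = 6) in black. CSDS replicates 4 and 5 and exercise replicate 4 lie on the other group's side for the slope and the ribosomal genes, and exercise replicates 3 and 6 stand apart for thalamic markers.

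Single mice also stood apart for markers of hippocampal cell types. In GC-corrected mean log2 CPM, exercise replicate 6 was at 5.55 for CA1 markers, against 6.02 to 6.14 in the other exercised mice, and at 7.21 for oligodendrocyte genes, against 6.26 to 6.67. Exercise replicate 4 was at 5.57 for dentate granule markers, against 5.05 to 5.23. Without exercise replicate 4 the corrected median of the dentate granule list was -0.18, against -0.06 with it. Without exercise replicates 3 and 6 together, the corrected median of oligodendrocyte genes was -0.15, against 0.03 with them. That of CA1 markers was then -0.04, against -0.10. Why these mice stood apart was not tested. The microglial marker Tmem119, at 60.8% GC, went from -0.46 ± 0.10 to -0.14 ± 0.07 and Aif1 was at 0.05 ± 0.18 in both fits. After correction the astrocyte gene Gfap was at -0.03 ± 0.11, the myelin gene Mbp at -0.01 ± 0.14, the endothelial gene Cldn5 at 0.10 ± 0.08, Slc17a7 of excitatory neurons at -0.15 ± 0.16 and the cortical marker Lamp5 at 0.02 ± 0.12. Dentate granule and CA1 marker lists had corrected medians of -0.06 and -0.10, which turned to 0.10 and 0.01 with the slope as covariate. In that fit 10 of 25 dentate genes were nominally higher and 0 lower, where 6.10% and 5.10% of all genes were. The choroid plexus varied most between mice, with Ttr, its thyroid hormone carrier, from 26.5 to 6116 CPM with exercise and from 50.7 to 7985 with CSDS, and a log2 fold change of -0.34 ± 1.35. The median of the choroid plexus and ependymal list was -0.29 after correction and -1.30 slope-adjusted. In that last fit all 28 genes were negative and 0 had p under 0.05 in edgeR.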

How the data were processed

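The deposited table holds RSEM expected counts per gene, which the authors made with fastp, HISAT2 and RSEM on GRCm38, per the submitters' processing notes; no source used here gives the annotation release or the strand setting. Fractional values made up 22.7% of those above 0, and every value was rounded to a whole number for the tests. The 5296 identifiers without a symbol held 0.62% of the counts. The 12 libraries of exercise with CSDS and of CSDS alone were fitted with edgeR 4.0.16 (R 4.3.3), TMM scaling, a minimum count of 10 and Benjamini-Hochberg adjustment. A second fit removed each library's GC trend with a loess curve (span 0.3) on median transcript GC content from GENCODE M21, known for 98.2% of genes. Alternatives used DESeq2 1.42.0, limma 3.58.1 and sva 3.50.0. The code was tested on simulated data.

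Genes named were those with the smallest p in each direction and fit, those that persisted (80% or more of the fold change) or faded on correction, the leading genes of each list, a fixed set and predicted genes with the smallest p, with a mean of at least 1 CPM. The members and lists were chosen with earlier results of these data known. Promoters are from RefSeq on GRCm38.p6, where 30 of 41 interferon-stimulated and 19 of 22 MHC class I genes matched. Library totals limit precision, and intervals cover counting error only. A few genes that the naming rule selects are not reported here.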

Additional observations from a re-analysis of the deposited data

Results flagged for a closer look

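Dixon's ratio of gap to range was taken in 246 group-by-quantity sets of 6 mice. In 22 sets, a mouse's gap to its nearest neighbour exceeded the 95% critical value. Among normally distributed values about 5% of sets, or 12.3, would pass. These sets share the same mice and are mostly CPM not checked for normality, so 12.3 is a rough mark only. Of the 22, 11 lay in exercise replicate 4, 6 in replicate 6 and 3 in replicate 3.

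Exercise replicate 4 was highest among exercised mice for Ybx1 at 154 CPM (next 129), Jund at 123, Hapln4 at 172, Junb at 59.4, Arc at 155 (next 78.9), Tmem119 at 27.7, Vegfa at 46.3 and Gm29216 at 13.7 CPM (next 4.50), and lowest for Zfp266 at 25.3 CPM. Its mean log2 CPM was also lowest for cytosolic ribosomal protein genes, at 6.68, and for oxidative phosphorylation subunits, at 5.91.

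Exercise replicate 6 was highest for Tcf7l2 at 144 CPM, Ramp3 at 45.3, Irf7 at 5.66, Dlx5 at 3.13 and Mbp at 4546 CPM, and lowest for Dgkh at 108 CPM. Exercise replicate 3 was highest for Zfp654 at 26.2 CPM, Il1rapl1 at 13.2 and Gabra2 at 76.8 CPM. Exercise replicate 5 was lowest for Npbwr1 at 0.666 CPM. For Gm37421, CSDS replicate 1 held 0.0453 CPM, from 1 count, and the others were at 0.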

How the results depend on the processing

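The number of genes past the adjusted threshold, 1 before and 1 after GC correction, depended on the method. DESeq2 called 247 (58 higher, 189 lower) and 13, and limma voom with quality weights called 5789 and 376. With no filter on low counts there were 3 and 3 calls. With at least 1 CPM in 6 libraries, which removes Gm37421, edgeR made 0 and 0 calls, with 2512 and 1153 genes at an unadjusted p under 0.05. Fitting all 18 libraries gave 0 calls before correction (2568 at an unadjusted p under 0.05), and 1 surrogate variable gave 3. Leaving out 1 mouse at a time gave 0 (without CSDS replicate 1, with 1792 genes at an unadjusted p under 0.05) to 1149 (without exercise replicate 4) calls before correction and 1 to 4 after, with 4 without CSDS replicate 5 and 3 without exercise replicate 4. Genes at an unadjusted p under 0.05 then ran from 1616 (without CSDS replicate 2) to 5095 (without exercise replicate 4) before correction. After correction they ran from 818 to 2580, without the same 2 mice. The difference in GC slope ran from -0.35 (without exercise replicate 4) to -0.22 (without exercise replicate 3). The causes of these differences were not tested. The replicate block gave 1 call before and 1 after correction, with 1265 and 676 genes at an unadjusted p under 0.05. Mice with the same number did not deviate together (correlations of -0.34 to -0.12), so no pairing by number showed in these values. The correlations were taken before GC correction and cannot exclude a pairing. Of 286 named genes, 215 kept their sign under every alternative before correction and 217 after, and of 45 lists 16 and 12 kept the sign of their median.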
